A study of Mus musculus with 6 samples.

Results

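The endoplasmic reticulum (ER) chaperone and ER-associated degradation (ERAD) genes described here are Hspa5, Hsp90b1, Dnajb9, Syvn1, Sel1l, Edem1, Xbp1, Herpud1, Calr and Canx. They were taken as every non-control probe whose transcript accession maps to 1 of these symbols, which gave 11 probes for 10 genes among 39429 probes and 17991 genes tested. All 10 genes passed the background filter, and all 11 probes were well above background on all 6 arrays. The arrays are 1-colour Agilent expression arrays of total liver RNA from C57Bl/6 mice, 3 labelled as Itpr2 knockout (Itpr2KO) and 3 as wild-type. Itpr2 encodes an inositol trisphosphate receptor, a channel that releases calcium from the ER. All 6 mice were 23 months old, came from an untreated survival cohort on a standard diet, and are independent animals per the series design. Neither the knockout allele nor the sex of the mice is described in the labels.

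Proteins of the secretory pathway fold in the ER lumen, where the HSP70-type chaperone encoded by Hspa5 and the calcium-binding lectin chaperones calreticulin and calnexin (Calr, Canx) hold them. Chains that do not fold are pulled back to the cytosol and degraded by ERAD, in which the ubiquitin ligase encoded by Syvn1 works with its partner Sel1l. When unfolded protein accumulates, the unfolded protein response raises these genes through the transcription factors ATF6 and XBP1. Hepatocytes secrete most plasma proteins and carry a large ER, which also serves as a calcium store.

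ATF6 and XBP1 act through short DNA elements, so the 250 bases before each annotated gene start were searched on both strands for 3 of them. These were the ER stress element (ERSE: CCAAT, then 9 bases of any kind, then CCACG), ERSE-II (ATTGG, then 1 base of any kind, then CCACG) and the core of the unfolded protein response element (UPRE, TGACGTGG). All 3 hold the letters CCACG or their complement, so their matches overlap with matches to that core. All 10 genes had 1 promoter each in the RefSeq-derived table (GRCm38.p6). An ERSE was present in 5 of them, against 0.113% of 32851 promoters in the table, and ERSE-II in 1, against 0.0304%. The list was built around genes known to be raised by ATF6 and XBP1. An excess of their elements thus comes with the choice of genes and is no separate result. The 6 promoters are shown because they hold the elements through which these genes are known to be induced together. Each sequence runs 5′ to 3′ on the gene's strand, with the elements in capitals.
Hspa5, chr2:34772015-34772053, plus strand: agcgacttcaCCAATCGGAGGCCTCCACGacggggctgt
Hsp90b1, chr10:86705523-86705666, minus strand: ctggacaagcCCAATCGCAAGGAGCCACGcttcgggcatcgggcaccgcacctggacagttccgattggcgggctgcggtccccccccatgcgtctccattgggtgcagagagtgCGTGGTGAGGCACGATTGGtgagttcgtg
Syvn1, chr19:6046522-6046560, plus strand: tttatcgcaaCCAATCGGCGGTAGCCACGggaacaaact
Calr, chr8:84847065-84847103, minus strand: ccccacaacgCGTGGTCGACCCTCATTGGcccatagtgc
Canx, chr11:50325790-50325828, minus strand: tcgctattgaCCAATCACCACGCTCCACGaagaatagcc
Herpud1, chr8:94386367-94386397, plus strand: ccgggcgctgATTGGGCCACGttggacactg
The ERSE of Hspa5 lay 65 to 47 bases before the start and that of Syvn1 44 to 26 bases before it. Hsp90b1 had 2 copies, the distal one in the orientation shown above and the proximal one on the opposite strand, as was the copy in Calr. The CCACG core alone was found in 9 of the 10 promoters, against 28.3% of all promoters in the table. Xbp1 was the gene with no CCACG in this window, and UPRE was found in 0 of the 10 against 0.563% of all promoters.

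The comparison asked how the transcripts of this folding and degradation machinery differ between old Itpr2KO and wild-type livers. Levels are log2 processed signals after subtraction of each array's 75th percentile, and log2 changes are Itpr2KO minus wild-type. Itpr2 itself had levels of 2.54, 2.38 and 2.20 in Itpr2KO livers, against 3.04, 3.07 and 3.08 in wild-type livers, which is 1.62-fold lower in the mean (limma adjusted p = 0.811). It was measured on 1 probe, and the labels do not say which exons were deleted. Syvn1, Dnajb9 and Hspa5 had lower levels on all Itpr2KO arrays than on any wild-type array, by 1.63-fold, 1.74-fold and 1.34-fold in the mean. Hsp90b1, Calr and Canx had nearly equal means in both genotypes. By limma, fitted across all genes with Benjamini-Hochberg adjustment, 0 of the 10 passed the adjusted threshold of 0.05, and 1 of 17991 genes did (0.00556%). At an unadjusted p under 0.05, 3 of the 10 were lower, where 2.66% of all genes were, and 0 were higher, where 3.46% of all genes were. Of these 3, Hspa5 was just under the cut-off, with an unadjusted limma p of 0.0496. The arrays of the genotypes did not overlap for the same 3 genes, where 5.15% of all genes were separated with Itpr2KO lower, and 0 of the 10 were separated with Itpr2KO higher, where 6.90% of all genes were. Over all 10 genes the median log2 change was -0.21, against 0.022 over all genes tested, and 6 of 10 had a lower Itpr2KO mean, against 45.9% of all genes. The genes were chosen with results of these data known, so these counts describe the list and do not test it. With normexp background correction all 10 genes had a lower Itpr2KO mean and their median was -0.83, against 0.094 over all genes. The near-equal means of Hsp90b1, Calr and Canx thus depend on the background correction. The shift was not particular to the list: outside it, the bright Ppib and Os9 moved to -0.35 and -0.32 from 0.30 and 0.24. The dimmer Srprb and Atf6b moved to 0.35 and 0.29 from -0.73 and -0.41. Genes with an unadjusted limma p under 0.05 rose from 1102 to 5946.

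Syvn1 encodes the membrane ubiquitin ligase (HRD1) at the centre of the main ERAD complex. Its levels were 4.90, 4.34 and 4.48 in Itpr2KO livers 1, 2 and 3, against 5.43, 5.09 and 5.30 in wild-type livers 1, 2 and 3. The highest knockout array lay below the lowest wild-type array, and mice 2 and 3 of the knockout were further from wild type than mouse 1. The mean was 4.57 ± 0.29 in Itpr2KO and 5.27 ± 0.18 in wild-type (SD, n = 3 each), a log2 change of -0.70 ± 0.19 (SE) with a limma adjusted p of 0.811. Of all genes tested, 0.923% had a smaller unadjusted p than Syvn1.

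Sel1l encodes the adaptor that holds the Syvn1 ligase complex together and stabilises it. Its levels were 1.92, 1.21 and 0.86 in Itpr2KO livers, against 1.93, 1.60 and 1.98 in wild-type livers. Knockout mouse 1 lay within the wild-type range while mice 2 and 3 lay below it, so the genotypes overlapped. The mean was 1.33 ± 0.54 in Itpr2KO and 1.84 ± 0.21 in wild-type, a log2 change of -0.51 ± 0.29 (SE) with a limma adjusted p of 0.814. The Sel1l change was -0.27 without knockout mouse 3 and -0.80 without knockout mouse 1.

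Edem1 and Herpud1 act on either side of this complex. Edem1, a lectin-like protein that directs glycoproteins with trimmed mannose to ERAD, had levels of 2.73, 2.75 and 2.39 in Itpr2KO livers, against 2.85, 2.66 and 2.89 in wild-type livers. Only the third knockout array was below the wild-type range, and the log2 change was -0.18 ± 0.15 (SE, limma adjusted p = 0.852). Without the third knockout array the Edem1 change was -0.064. Herpud1, a stress-induced membrane protein that recruits components to the ligase, had levels of 4.09, 4.09 and 4.55 in Itpr2KO livers, against 4.99, 4.19 and 4.29 in wild-type livers. Wild-type mouse 1 stood above all other arrays, and without it the Herpud1 change was 0.0047 in place of -0.25 ± 0.26 (SE, limma adjusted p = 0.870).

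Hspa5 encodes BiP (GRP78), the main HSP70-type chaperone of the ER lumen, which also holds the stress sensors inactive. Its levels were 6.35, 5.85 and 6.28 in Itpr2KO livers, against 6.59, 6.46 and 6.70 in wild-type livers. All knockout arrays lay below all wild-type arrays, with mouse 2 lowest. The mean was 6.16 ± 0.27 in Itpr2KO and 6.58 ± 0.12 in wild-type, a log2 change of -0.42 ± 0.17 (SE) with a limma adjusted p of 0.811. Without knockout mouse 2 the Hspa5 change was -0.26.

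Dnajb9 encodes ERdj4, a J-domain cochaperone of BiP and a well-known XBP1 target. It was the only gene of the 10 with 2 probes. On the brighter probe the levels were 2.57, 2.03 and 1.41 in Itpr2KO livers, against 2.80, 2.90 and 2.69 in wild-type livers. The genotypes did not overlap, wild-type arrays were tightly grouped, and knockout mouse 3 was lowest. The mean was 2.00 ± 0.58 in Itpr2KO and 2.80 ± 0.11 in wild-type, a log2 change of -0.79 ± 0.29 (SE) with a limma adjusted p of 0.811. With each probe tested on its own, the dimmer probe had a log2 change of -0.92 ± 0.29 (SE, limma adjusted p = 0.805), and its arrays did not overlap either. Without knockout mouse 3 the change of the brighter Dnajb9 probe was -0.50.

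Hsp90b1 encodes GRP94, the HSP90 chaperone of the ER lumen and a calcium-binding protein. Its levels were 6.25, 6.27 and 6.52 in Itpr2KO livers, against 6.32, 6.13 and 6.48 in wild-type livers. The ranges nearly coincided, and the log2 change was 0.04 ± 0.15 (SE, limma adjusted p = 0.972). The sign of the Hsp90b1 change turned under 7 of 21 alternatives, among them quantile normalization (-0.059).

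Calr encodes calreticulin, the soluble lectin chaperone that also buffers luminal calcium. Its levels were 5.03, 4.33 and 4.62 in Itpr2KO livers, against 4.70, 4.33 and 4.85 in wild-type livers. Knockout mouse 1 was the highest array and knockout mouse 2 and wild-type mouse 2 the lowest, so the spread was within rather than between genotypes. The log2 change was 0.03 ± 0.23 (SE, limma adjusted p = 0.986), and its sign turned under 4 of 21 alternatives. Canx, the membrane-bound lectin chaperone calnexin, had levels of 4.63, 4.78 and 4.78 in Itpr2KO livers, against 4.68, 4.59 and 4.81 in wild-type livers. These 6 values lay closer together than those of the other 9 genes. The Canx change was 0.04 ± 0.13 (SE, limma adjusted p = 0.969), and its sign turned under 3 of 21 alternatives.

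Xbp1 encodes the transcription factor whose messenger RNA is spliced by the sensor IRE1 when unfolded protein accumulates. Its levels were 6.57, 5.86 and 5.93 in Itpr2KO livers, against 6.00, 5.68 and 5.99 in wild-type livers. Knockout mouse 1 was the highest array, and the other two knockout arrays lay within the wild-type range. The log2 change was 0.23 ± 0.22 (SE, limma adjusted p = 0.868), and it was 0.0015 without knockout mouse 1. The level is that of 1 probe, and splicing of Xbp1 was not analysed here.

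**Figure D1:**
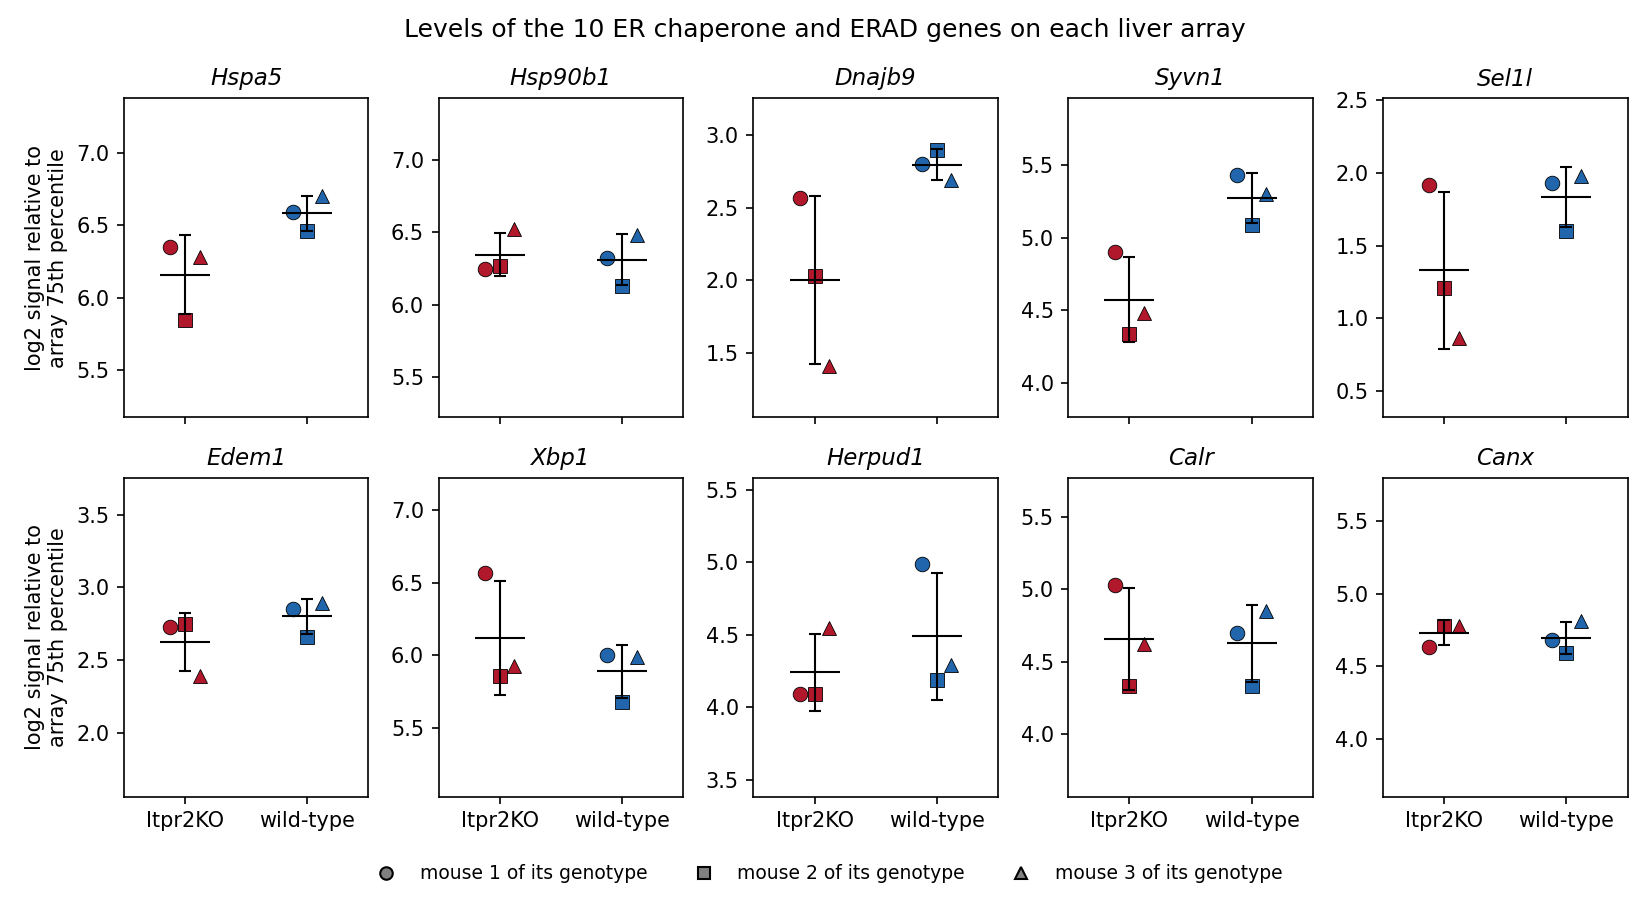
Log2 signal relative to the array's 75th percentile (y axis) for the 10 genes, with Itpr2KO livers left of wild-type livers; each symbol is 1 mouse, long bars are means and whiskers are SD (n = 3), and every panel spans the same range of log2 units. The genotypes are separated for Hspa5, Dnajb9 and Syvn1, while Hsp90b1, Calr and Canx overlap.

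An exact two-sided permutation test over the 20 assignments of arrays gave p = 0.1 for Syvn1, Dnajb9 and Hspa5, the lowest p that this design can reach. Every gene with separated genotypes has this p, so it restates the separation. Of all genes, 5.15% were separated with Itpr2KO lower and 6.90% with Itpr2KO higher. The other 7 genes had exact permutation p between 0.2 (Sel1l) and 1 (Calr). Each gene was also expressed as a log2 ratio to Hsp90b1 within its array. Hsp90b1 was chosen as the denominator after its near-equal means were seen, so the ratios describe the same differences and are no separate test. The ratio of Syvn1 to Hsp90b1 was -1.35, -1.93 and -2.04 in Itpr2KO livers, against -0.88, -1.05 and -1.17 in wild-type livers. The ratio of Hspa5 to Hsp90b1 was 0.10, -0.42 and -0.23 in Itpr2KO livers, against 0.27, 0.32 and 0.22 in wild-type livers. Both ratios were lower on every knockout array, with differences of -0.74 and -0.46, where 3.66% of all genes were separated in this way. The ratio of Dnajb9 overlapped between the genotypes, at -3.69 in Itpr2KO mouse 1 and -3.79 in wild-type mouse 3. For Calr and Canx the ratio to Hsp90b1 differed by -0.01 and 0.00.

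Genes with an ERSE lay both among the lower changes and near 0. Of the 5 genes with an ERSE, Syvn1 and Hspa5 had log2 changes of -0.70 and -0.42, and Calr, Hsp90b1 and Canx had changes between 0.03 and 0.04. Dnajb9 and Sel1l, with changes of -0.79 and -0.51, had none of the 3 elements in the window searched. Herpud1, with the ERSE-II, had a change of -0.25. These matches are letters in a window before 1 annotated start and do not show that a factor was bound there.

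**Figure D2:**
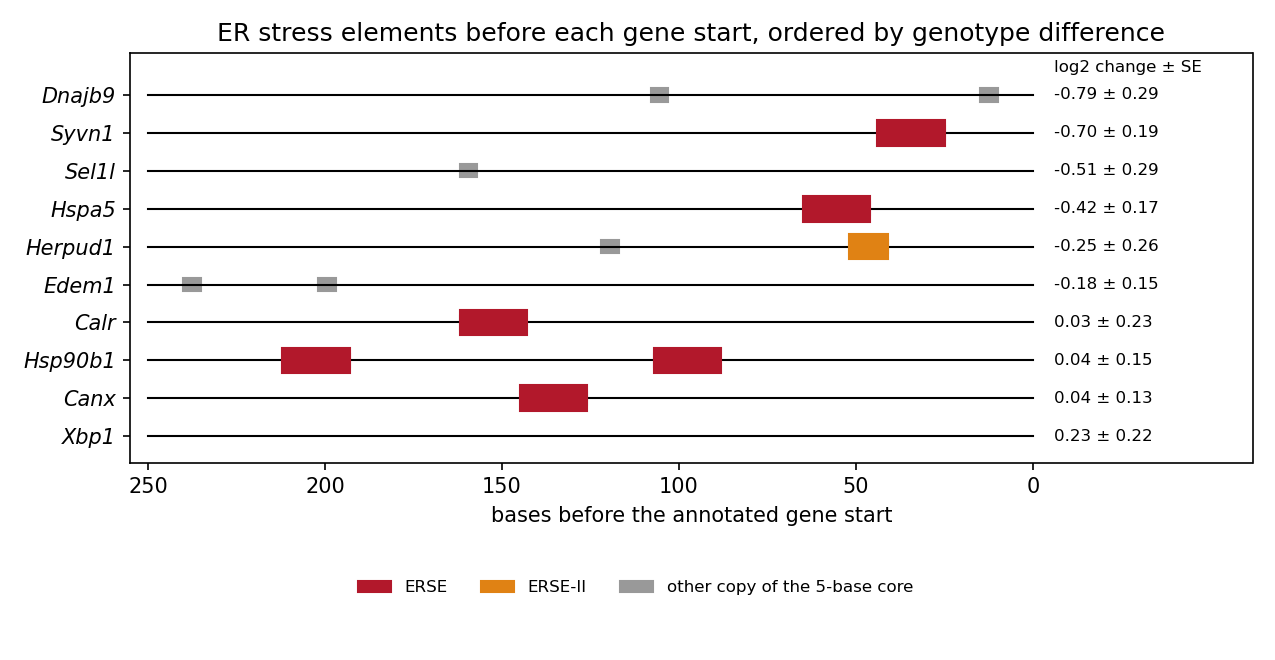
Position of the ERSE, the ERSE-II and further copies of the 5-base core in the 250 bases before each gene start (x axis, bases before the start), with the 10 genes ordered from the lowest to the highest log2 change, Itpr2KO minus wild-type (± SE, right). ERSE copies stand both among the genes with lower means (Syvn1, Hspa5) and among those with changes near 0 (Calr, Hsp90b1, Canx).

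The Itpr2KO livers differed among themselves. In Hspa5, Dnajb9, Syvn1 and Sel1l the lowest arrays were knockout mice 2 and 3, which was so for 4 of the 10 genes and for 9.27% of all genes. This pattern was not particular to the 10 genes. It was found for 18 of the 99 other ER genes described below. Among these were 6 of 16 cochaperones and luminal stress proteins, 5 of 12 sensors and regulators of the unfolded protein response, and 0 of 21 other ERAD genes. Relative to each gene's mean over the 6 arrays, the median deviation of the 10 genes was 0.00, -0.30 and -0.09 in Itpr2KO livers 1, 2 and 3, against 0.18, -0.09 and 0.19 in wild-type livers 1, 2 and 3. The corresponding medians over all genes lay between -0.029 and 0.029. Knockout mouse 2, knockout mouse 3 and wild-type mouse 2 were each the lowest array for 3 of the 10 genes, where they were the lowest for 17.1%, 21.8% and 18.8% of all genes, so a low level of single genes was not confined to the knockout. In the authors' deposited matrix the columns of knockout mice 2 and 3 match the scanner tables of mice 3 and 2, so which of these animals carries which number differs between the sources, and the scanner tables are followed here.

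The arrays lay on 2 slides that were scanned apart, slide 1 with knockout mouse 1 and wild-type mice 1 and 2, and slide 2 with knockout mice 2 and 3 and wild-type mouse 3. Within slide 1 the log2 changes of Syvn1, Dnajb9 and Hspa5 were -0.36, -0.28 and -0.17, and within slide 2 they were -0.89, -0.97 and -0.63. All 3 had to be lower in Itpr2KO on each slide, because their knockout arrays all lay below their wild-type arrays. The signs within slides are therefore no separate support. The differences were larger on slide 2, which holds 1 wild-type array. Sel1l had 0.16 within slide 1 and -0.95 within slide 2, Xbp1 had 0.73 and -0.10, and Calr had 0.51 and -0.37, so these genes had opposite signs on the slides. Within slide 1, 6 of the 10 genes were lower in Itpr2KO, where 52.5% of all genes were, with a median of -0.02. Within slide 2, 9 of 10 were lower, where 45.7% of all genes were, with a median of -0.35. With the slide as a block in the limma fit the changes of Syvn1, Dnajb9 and Hspa5 were -0.63, -0.63 and -0.40, each with an adjusted p of 0.937. In that fit 1 of the 10 genes had an unadjusted limma p under 0.05, against 3 without the block, as did 921 of all 17991 genes.

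**Figure D3:**
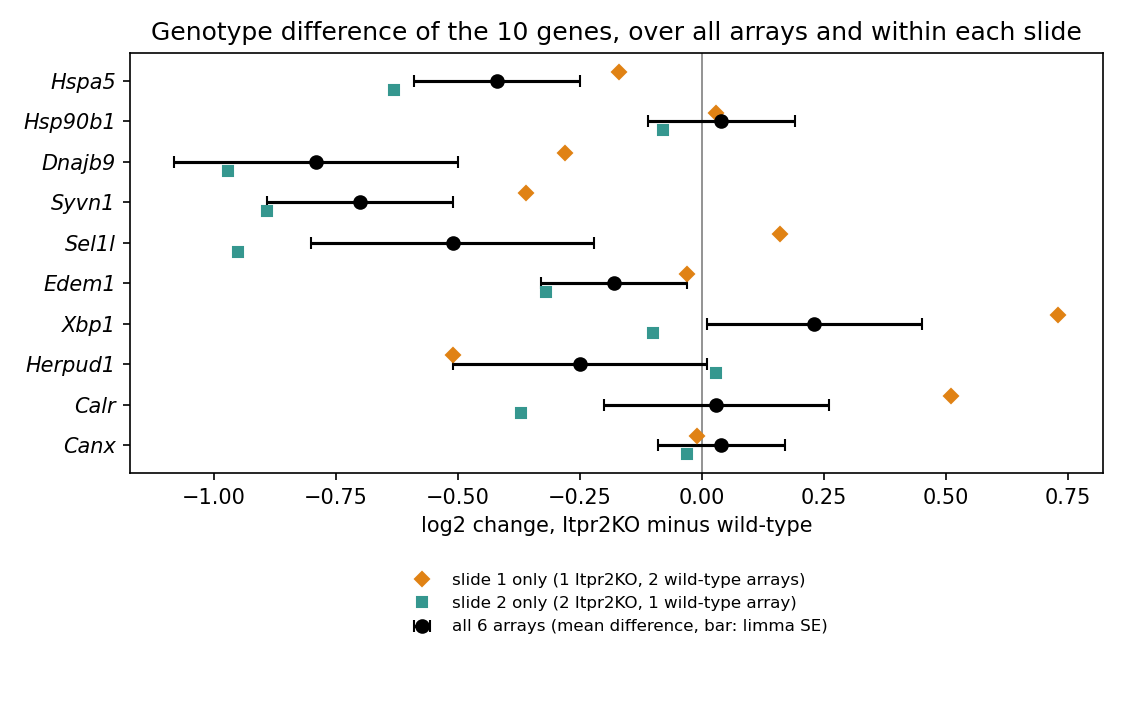
Log2 change, Itpr2KO minus wild-type (x axis), of the 10 genes over all 6 arrays (circles, with the SE of the limma fit) and within slide 1 (diamonds) and slide 2 (squares), where 1 genotype has 1 array and no error was computed. Syvn1, Dnajb9 and Hspa5 lie left of 0 on both slides, which follows from their separated genotypes. Sel1l, Xbp1 and Calr lie on opposite sides of 0.

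The share of probes well above background was 57.6% to 59.6% per array, and no spot was saturated. All 8 hepatocyte markers, Alb among them, were well above background on all arrays, with a summed level of 9.70 to 10.03 in Itpr2KO and 9.43 to 9.74 in wild-type. Only 1 of the 8 had a lower Itpr2KO mean, and the part of this in the chaperone values was not tested. Striated muscle markers had summed levels of -1.80, -1.59 and 5.72 in Itpr2KO livers, against 5.60, -1.94 and -1.36 in wild-type livers, so knockout mouse 3 and wild-type mouse 1 stood apart. Without these arrays the changes of Syvn1, Dnajb9 and Hspa5 were -0.57, -0.50 and -0.47 by limma (lowest adjusted p = 0.761), and those of Sel1l and Edem1 were -0.22 and -0.038. All 7 Kupffer cell markers had a lower Itpr2KO mean, with a summed level of 6.52 to 6.92 in Itpr2KO and 6.85 to 7.91 in wild-type, and their part in the chaperone values was not tested. Of 4 neutrophil markers 0 had a lower Itpr2KO mean, with summed levels of 5.73, 2.48 and 5.14 in Itpr2KO livers, against 3.70, 3.01 and 3.81 in wild-type livers. Fat cell markers summed to 1.89, 2.11 and 4.23 in Itpr2KO livers, against 2.73, 2.81 and 1.45 in wild-type livers, with knockout mouse 3 highest. The part of either list in the chaperone values was not tested. Of B and plasma cell markers, which mark another cell type rich in ER, 2 of 7 had a lower Itpr2KO mean, and the summed level was 3.78 to 4.79 in Itpr2KO and 3.46 to 4.11 in wild-type. Of 9 pancreatic acinar markers 3 were not well above background on any array, and the summed level was 1.62 to 2.47 in Itpr2KO and 2.17 to 2.32 in wild-type. In bulk liver RNA, fewer cells of a type and less RNA per cell cannot be told apart.

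The wider ER machinery was taken as 7 lists with 99 measured genes. Their median log2 change was 0.01, against 0.022 over all genes, and 0 passed the limma adjusted threshold. A lower Itpr2KO mean was found for 46 of the 99 genes, against 45.9% of all genes. The slides differed in this. Within slide 1, 30 of the 99 genes were lower in Itpr2KO, against 52.5% of all genes, with a median of 0.10. Within slide 2, 66 of the 99 were lower, against 45.7% of all genes, with a median of -0.10. At an unadjusted p under 0.05, 5 of the 99 (5.05%) were lower, against 2.66% of all genes, and 1 was higher, against 3.46% of all genes. The 1 higher gene, Uggt2, entered the fit through the Itpr2KO arrays alone. The genotypes did not overlap for 8 of the 99 genes with Itpr2KO lower, against 5.15% of all genes, and for 8 with Itpr2KO higher, against 6.90%. The 8 with Itpr2KO higher include Uggt2. The genes named below have the smallest p of their list, besides Ddit3 and Atf4, and their values are descriptions with limma adjusted p between 0.811 and 0.947. With normexp background correction the sign turned for Atf4, Atf6b, Edem3, Os9, Ppib, Rcn3, Srprb and Ssr4.

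Cochaperones of BiP and luminal stress proteins (16 genes) had a median change of -0.10, with 2 lower and 0 higher at an unadjusted p under 0.05, against 2.66% and 3.46% of all genes. The genotypes did not overlap for 3 of the 16 genes with Itpr2KO lower, against 5.15% of all genes, and for 2 with Itpr2KO higher, against 6.90%. Creld2, an ER protein induced by ER stress, had levels of 4.69, 2.97 and 4.16 in Itpr2KO livers, against 5.20, 4.77 and 5.28 in wild-type livers. Manf, a calcium-sensitive partner of BiP, had levels of 3.78, 2.35 and 2.91 in Itpr2KO livers, against 4.09, 3.90 and 4.25 in wild-type livers. Neither gene overlapped between genotypes, knockout mouse 2 was lowest for both, and the log2 changes were -1.14 ± 0.43 for Creld2 and -1.06 ± 0.35 for Manf (SE). These were the lowest changes among the 99 genes, 2.20-fold and 2.09-fold in the mean, with slide values of -0.29 (slide 1) and -1.72 (slide 2) for Creld2 and of -0.21 (slide 1) and -1.62 (slide 2) for Manf. Without knockout mouse 2 the changes were -0.66 for Creld2 and -0.73 for Manf. Ppib, the ER cyclophilin, had a change in the other direction (0.30 ± 0.15), with higher levels on all knockout arrays.

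Sensors and regulators of the unfolded protein response (12 genes) had a median change of -0.05, and 9 had a lower Itpr2KO mean, against 45.9% of all genes. Wfs1, which encodes an ER membrane protein of calcium balance, had a change of -0.51 ± 0.20 (SE), and its levels did not overlap, at 0.22, -0.44 and -0.33 in Itpr2KO livers against 0.40, 0.33 and 0.26 in wild-type livers. Eif2ak3, the sensor kinase PERK, had a change of -0.45 ± 0.18 and Atf6b, a relative of ATF6, one of -0.41 ± 0.22, and both overlapped. From the arm downstream of PERK, Ddit3 (CHOP) had levels of -1.07, -1.12 and -1.38 in Itpr2KO livers, against -0.81, -0.46 and -0.60 in wild-type livers, a change of -0.57 ± 0.15 (SE). Atf4, the factor upstream of Ddit3, had a change of 0.08 ± 0.18.

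Disulfide isomerases and oxidases (17 genes) had a median change of 0.03, with 0 at an unadjusted limma p under 0.05, against 6.13% of all genes. Erp44, which retains client proteins in the early secretory pathway, had a change of -0.34 ± 0.15 (SE), Txndc11 one of -0.46 ± 0.23 and the membrane thioredoxin Tmx4 one of 0.31 ± 0.14. Glycan trimming enzymes and lectins (12 genes) had a median of 0.07. Uggt2, a relative of the folding sensor that reglucosylates glycoproteins, was well above background on all 3 Itpr2KO arrays and on 1 of 3 wild-type arrays, so it entered the fit through the Itpr2KO arrays and its difference is not read here. Edem3, related to Edem1, had a change of -0.36 ± 0.20 and the ERAD lectin Os9 one of 0.24 ± 0.14.

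Of 21 other ERAD genes for retrotranslocation and ubiquitin transfer, 14 had a higher Itpr2KO mean and 7 a lower one. Of all genes, 45.9% had a lower mean. The median of the 21 genes was 0.03, and 0 had an unadjusted limma p under 0.05, against 6.13% of all genes. Fam8a1, a component of the Syvn1 complex, had levels of 0.70, 1.19 and 1.64 in Itpr2KO livers, against 0.46, 1.01 and 0.65 in wild-type livers, a change of 0.46 ± 0.27 (SE), which was 0.23 without knockout mouse 3, 0.70 without knockout mouse 1 and 0.11 without the muscle arrays. The ubiquitin ligase Rnf5 had a change of -0.17 ± 0.13. Translocon and signal peptidase genes (14) had a median of 0.01. Srprb, a subunit of the signal recognition particle receptor, was the 1 gene lower at an unadjusted limma p under 0.05, against 2.66% of all genes. Srprb had levels of -1.49, -2.36 and -2.12 in Itpr2KO livers, against -1.41, -1.05 and -1.31 in wild-type livers, a change of -0.73 ± 0.25. Ssr2 and Ssr4, subunits of the translocon-associated complex, had changes of -0.14 ± 0.12 and 0.20 ± 0.18. Luminal calcium-binding proteins other than the chaperones (7 genes) had a median of 0.04 and a range of -0.06 to 0.22, with Rcn2, Rcn3 and Calu at 0.21, 0.22 and 0.07. No gene of that list had separated genotypes, where 5.15% of all genes were separated with Itpr2KO lower and 6.90% with Itpr2KO higher. Without 1 array the values were as low as 0.072 for Rcn2 (without wild-type mouse 2) and 0.033 for Rcn3 (without knockout mouse 3). For Calu the lowest was 0.0027 (without knockout mouse 1). Single arrays also moved Ssr4 to 0.069 and Edem3 to -0.22 (both without knockout mouse 3), Os9 to 0.15 (without wild-type mouse 2) and Rnf5 to -0.093 (without knockout mouse 3).

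**Figure D4:**
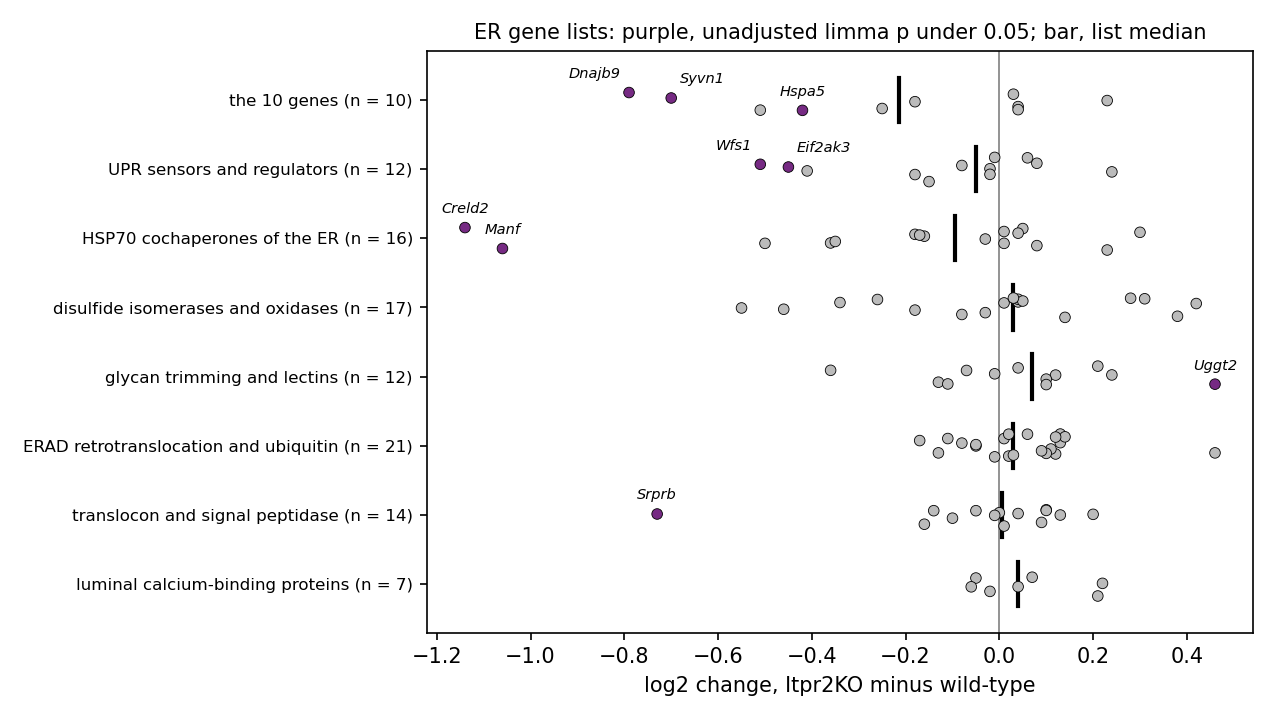
Log2 change, Itpr2KO minus wild-type (x axis), of the 10 genes and of 99 other ER genes in 7 lists (rows); each circle is 1 gene, purple marks an unadjusted limma p under 0.05 and the vertical bar is the list median. Creld2 and Manf lie furthest to the left, and 0 of the genes shown passed the adjusted threshold.

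Likeness to Hspa5 was measured as Pearson's r of log2 levels over the 6 arrays, a description over few arrays that share their scaling. Genotype means were not removed, so genes with separated genotypes, as Hspa5 has, tend to a large r of either sign. Syvn1, Creld2, Manf and Tmx4 are such genes. Syvn1 had r = 0.91, the rank 188 of 17880 other genes (the top 1.05%). Sel1l, Dnajb9 and Calr had r of 0.67, 0.59 and 0.51, Herpud1 and Edem1 0.44 and 0.36, and Hsp90b1, Xbp1 and Canx 0.20, 0.09 and -0.17. Hsp90b1 thus ranked 5653 and Canx 10363, so not all chaperones followed Hspa5 from liver to liver. Among the wider ER genes named above, Creld2 had r = 0.99 and Manf 0.95, while Tmx4 had -0.91. The genes most like Hspa5 outside the 10 were Olfr482, Lrch4, Spi1, 1 probe with no symbol and Laptm5, with r between 0.9892 and 0.9986. Each of these was, like Hspa5, lower on every Itpr2KO array than on any wild-type array. Olfr482 and Spi1 were dim, with levels of -4.97 to -4.26 and -4.35 to -2.98, against 5.85 to 6.70 for Hspa5. Both were called well above background on all 6 arrays. Spi1 encodes a transcription factor of myeloid cells and Laptm5 a lysosomal protein of blood cells. The Kupffer cell markers given above also had lower Itpr2KO means, and the part of such cells in this likeness was not tested.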

How the data were processed

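Total liver RNA of 3 Itpr2KO and 3 wild-type mice was Cy3-labelled for 1-colour Agilent arrays, with genotypes and replicate numbers taken from the sample titles. The scanner tables hold the processed signal intensity of each spot, background-subtracted by Agilent's Feature Extraction (11.5.1.1, per the file headers, or 10.7.3.1, per the submitters' processing notes). The authors' deposited matrix, used as an alternative, holds log2 values of 20644 probes, which matched percentile-scaled scanner values centred on each probe's median. Its column medians lay between -0.0127 and 0.0106.

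Control spots and 818 outlier spots were left out, spots of a probe were averaged, and log2 intensities were set relative to each array's 75th percentile. Probes entered if well above background on all 3 arrays of a genotype, and the brightest probe stood for a gene (17991 genes). Of 39429 probes, 28324 had 1 symbol, 0 had several and 11105 had none. Probes with no symbol were kept under their array name where they passed the filter. The 17991 genes, and all shares of all genes, thus include unnamed entries. Differences were tested with limma 3.58.1 in R 4.3.3 (lmFit and eBayes) with Benjamini-Hochberg adjustment over all genes. Precision is limited by 3 arrays per genotype. The fit was tested on simulated data. Slide, replicate number, background correction, normalization, filter, probe rule and single arrays were varied.

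The 10 genes and all lists were chosen with earlier results of these data known. Wider genes are named as those with the smallest p of each list, besides Itpr2, Ddit3 and Atf4, and 1 gene that the rule names is not reported here. Promoter sequences come from RefSeq (GRCm38.p6), and protein sequences were not used here.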

Additional observations from a re-analysis of the deposited data

How the results depend on the processing

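None of the 10 genes passed the adjusted threshold under any of the 21 alternatives with a test. Hspa5, Dnajb9, Syvn1, Sel1l and Edem1 kept a lower Itpr2KO mean in all 21. For the separated Hspa5, Dnajb9 and Syvn1 the sign could not turn where arrays were left out. The count of all genes past the limma threshold was 1, and it was 0 with normexp background correction, with probes above background on all 6 arrays, with the replicate block, with an intensity trend and without the arrays with muscle transcripts, and 0 to 1 with single arrays left out. Of the 10 genes, 0 to 5 had an unadjusted p under 0.05, with 1102 of all genes in the fit reported and 5946 with normexp. The median of the 10 genes was -0.21, and it was -0.83 with normexp, where 10 of 10 were lower, -0.02 within slide 1, and -0.32 to -0.07 with single arrays left out. With normexp the sign turned for Hsp90b1 (-0.59), Xbp1 (-0.39), Calr (-0.6), Canx (-0.64), Atf4 (-0.52), Atf6b (0.29), Edem3 (0.12), Os9 (-0.32), Ppib (-0.35), Rcn3 (-0.29), Srprb (0.35) and Ssr4 (-0.43), and the cause was not tested. Hsp90b1 also turned with quantile normalization (-0.059), the slide as a block (-0.027), array weights (-0.004) and without the muscle arrays (-0.042), Canx with the slide block (-0.018), Calr with array weights (-0.049), Atf4 when probes of a gene were averaged (-0.035) and Rcn3 without the muscle arrays (-0.013). Within slide 1 the sign turned for Sel1l (0.16), Canx (-0.0073), Atf4 (-0.2), Atf6b (0.048), Edem3 (0.1), Fam8a1 (-0.04) and Rcn3 (-0.13), and within slide 2 for Hsp90b1 (-0.082), Xbp1 (-0.1), Herpud1 (0.034), Calr (-0.37) and Canx (-0.029). With single arrays left out Herpud1 ran from -0.4, Calr up to 0.2, Canx up to 0.095 and Atf4 up to 0.17, and the sign turned for Herpud1 without wild-type mouse 1 (0.0047), for Hsp90b1, Calr and Canx without wild-type mouse 2 (-0.049, -0.12 and -0.015), for Atf4 without wild-type mouse 3 (-0.066), for Calr without knockout mouse 1 (-0.15), for Atf4 without knockout mouse 2 (-0.022) and for Hsp90b1 without knockout mouse 3 (-0.046). Same-numbered arrays had deviations correlated at -0.19, 0.0424 and -0.28 for numbers 1, 2 and 3. These values show no pairing by number, but with 3 arrays per genotype they cannot exclude it. The numbers of knockout mice 2 and 3 also differ between the sources. With the replicate block the median of the 10 genes was -0.21 and their lowest limma adjusted p 0.769.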
